A study of Mus musculus with 2 samples.

Results

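Acan-rich cartilage-like cells were the cells of 2 lung sections with small cell lung cancer (SCLC) that carried at least 2 transcripts of *Acan*, the gene of the cartilage proteoglycan aggrecan, and at most 1 transcript in sum of 5 neuroendocrine (NE) genes (*Chga*, *Chgb*, *Scg5*, *Snap25* and *Celf3*). The cells were thus chosen by the measured counts of these 6 genes, which are described below without being findings. Cells with fewer than 20 gene transcripts were left out. The rule found 257 cells of 493524, 1 of 152915 in the RPR2 section and 256 of 340609 in the CRPR2 section. RPR2 mice carry *Rb1* lox/lox, *Trp53* lox/lox and *Rbl2* lox/lox alleles, which are deleted by adenoviral Cre instilled into the trachea at 10 weeks of age, and CRPR2 mice carry the same alleles with a germline *Cracd* knockout. For the tumors that the study sequenced, Cre was driven by the CMV promoter, which is not limited to a cell type, and it was given by way of the airways, while *Cracd* was absent from every cell of a CRPR2 mouse. The lungs of both genotypes were taken at a fixed time after infection, embedded in a single block and measured on a single slide by Xenium In Situ, an imaging assay that counts transcripts of a chosen gene panel inside segmented cells. There was 1 section of each genotype, so differences between sections had no replicate check, and genotype, animal and the piece of tissue that was cut cannot be told apart.

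Cartilage is built by chondrocytes, which secrete a matrix of type II collagen and aggrecan under the control of the transcription factor Sox9. A sheath of fibroblast-like cells, the perichondrium, surrounds it. In the mouse airways, cartilage plates and rings belong to the trachea and the main bronchi, and the airways within the lung are largely free of it.

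The members had a median of 87.5 gene transcripts per cell (quartiles 61 and 114.25) in the CRPR2 section, against 99 in the reference cells, which were cells of the same section with no *Acan* transcript and at most 1 transcript of the NE genes, and 102 in NE cells (2 or more transcripts of the NE genes). *Acan* itself had a median of 4 transcripts per member and reached 32. It stood at exactly 2 transcripts in 67 members, at 5 or more in 117 and at 10 or more in 47, and a further 279 cells lay just outside the rule with 1. Of the members, 249 had no transcript of the 5 NE genes, and the limits on NE genes and on depth each removed 2 further cells. The 2 sections shared 8 cell identifiers, none of which belonged to a member.

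The promoters of the gene that defines the cells and of 3 genes that were high in them are shown for reference, as 250 bases before and 50 after the start of the gene from RefSeq, build GRCm38.p6, each on the strand of the gene. The table matched 11 of the 16 genes looked up, which were *Acan*, the other cartilage matrix genes of the panel and the 15 genes with the largest ratio over reference cells. *Col2a1*, *Comp*, *Sox9*, *Lum* and *Ccdc80* were not matched. Capitals mark a match on either strand to TATAAA or to a SOX motif (NNCAANG, where each N was A or T), with no overlap between the matches in the windows shown. Of 32851 promoter windows in the table, 13.6% held the first and 24.6% the second. Of the 11 matched genes, 3 held the first and 1, *Fxyd3*, the second, so the windows shown include the only SOX match among them.
*Acan* (aggrecan), chr7:79052976-79053275, plus strand: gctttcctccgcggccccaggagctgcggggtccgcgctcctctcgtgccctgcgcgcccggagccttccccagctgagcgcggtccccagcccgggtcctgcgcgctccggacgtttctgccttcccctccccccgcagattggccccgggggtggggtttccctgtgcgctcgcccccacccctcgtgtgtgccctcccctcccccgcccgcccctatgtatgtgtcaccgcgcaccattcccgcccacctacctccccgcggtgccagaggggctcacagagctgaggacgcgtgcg
*Ucma* (a matrix protein of cartilage), chr2:4975872-4976171, plus strand: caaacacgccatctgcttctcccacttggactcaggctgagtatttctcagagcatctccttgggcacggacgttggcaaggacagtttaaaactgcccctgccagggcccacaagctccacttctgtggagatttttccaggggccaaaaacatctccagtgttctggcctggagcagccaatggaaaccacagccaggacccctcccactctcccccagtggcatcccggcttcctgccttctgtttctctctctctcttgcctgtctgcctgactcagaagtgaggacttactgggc
*Fxyd3* (a regulator of ion transport), chr7:31076648-31076947, minus strand: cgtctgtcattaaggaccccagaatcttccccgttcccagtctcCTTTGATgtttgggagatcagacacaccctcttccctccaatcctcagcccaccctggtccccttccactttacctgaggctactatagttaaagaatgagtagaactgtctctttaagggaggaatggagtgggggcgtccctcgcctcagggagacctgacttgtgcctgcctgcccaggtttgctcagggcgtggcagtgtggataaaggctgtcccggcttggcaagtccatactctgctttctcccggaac
*Otor* (otoraplin, a secreted protein of cartilage and the inner ear), chr2:143078143-143078442, plus strand: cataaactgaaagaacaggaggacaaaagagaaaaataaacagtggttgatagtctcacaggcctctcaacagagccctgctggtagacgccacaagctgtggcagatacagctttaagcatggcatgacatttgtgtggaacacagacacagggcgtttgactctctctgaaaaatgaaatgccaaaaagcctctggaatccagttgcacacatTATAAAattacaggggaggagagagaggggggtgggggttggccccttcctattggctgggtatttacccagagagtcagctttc
The window of *Fxyd3* held a SOX match at position -206 from the gene start and that of *Otor* a TATAAA match at position -35, while those of *Acan* and *Ucma* held neither. These matches describe the letters of the windows only.

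Which section held the cells, and at what level, was compared first. Acan-rich cells made up 75.2 of every 100000 cells in the CRPR2 section (95% exact binomial interval, 66.2 to 84.9) and 0.654 in the RPR2 section (0.0166 to 3.64). The ratio was 115-fold, with an exact interval of 20.4 to 4557. It rested on the limit of 2 transcripts, since cells with 1 or more *Acan* transcripts made up 157 of every 100000 in CRPR2 and 118 in RPR2. These intervals, like all others given here, cover counting error only. Over all segmented cells, *Acan* was counted 2112 times in the CRPR2 section and 198 times in the RPR2 section. As counts per 1000000 gene transcripts (CPM), its level was 56.5 (54.2 to 59.0, exact Poisson interval) in CRPR2 and 12.1 (10.5 to 14.0) in RPR2, where the brightest of 20 negative control probes reached 9.93 CPM. The RPR2 transcripts were spread over 197 cells with no more than 2 in any, while members held 74.8% of the CRPR2 transcripts. With the members left out, the CRPR2 level was 14.3 CPM.

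Of the 7 panel genes of the cartilage matrix and chondrocyte factor lists that the rule did not use, 4 were at least 2-fold higher over the whole CRPR2 section than over RPR2, as were 17.8% of the 473 panel genes outside the rule with transcripts in both. At least 2-fold lower was 1 of the 7, *Wif1*, and 20.1% of those genes. *Col2a1*, the type II collagen gene, stood at 5.76 CPM in RPR2, below the brightest control probe, and at 28.9 CPM in CRPR2. *Ucma* stood at 9.13 and 25.7 CPM, and *Comp*, the gene of cartilage oligomeric matrix protein, at 71.7 and 144 CPM. *Sox9* stood at 125 and 474 CPM, but the members held 544 of its 17693 CRPR2 transcripts. *Runx2* stood at 332 and 254 CPM. *Otor*, which is on neither list, did not differ beyond counting error (19.8 and 20.3 CPM). *S100b* (a calcium-binding protein of chondrocytes and glia) and *Wif1* (a secreted inhibitor of Wnt ligands) ran the other way, at 225 against 118 CPM and 445 against 186 CPM, so their levels over a whole section did not follow the number of Acan-rich cells. A gate that did not use *Acan*, 2 or more transcripts of *Col2a1* and *Ucma* together under the same limits on depth and NE genes, was set after the data had been seen. It found 2 cells in RPR2 and 202 in CRPR2, a 45.3-fold ratio of shares (12.4 to 377), and 163 of the 202 were members (80.7% of that gate and 63.7% of the Acan-rich cells of the section).

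**Figure D1:**
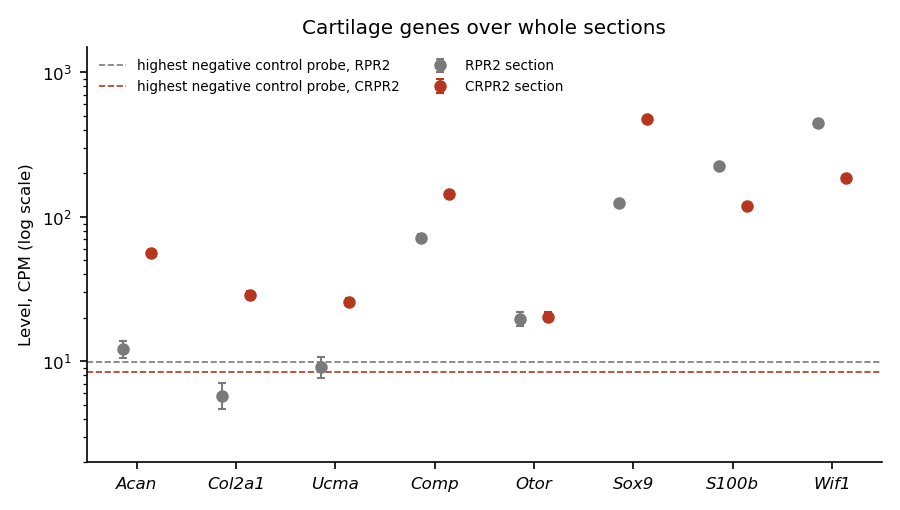
Levels of 8 genes over all segmented cells of the RPR2 section (grey) and the CRPR2 section (red), in CPM on a log scale. Bars are 95% exact Poisson intervals, smaller than many of the points, and dashed lines mark the brightest negative control probe of each section (9.93 and 8.43). *Acan*, *Col2a1* and *Ucma* lay near that line in RPR2 and above it in CRPR2.

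The single member of the RPR2 section had 101 transcripts of 48 genes, among them 2 of *Acan*. It had no transcript of *Col2a1*, *Ucma*, *Comp*, *Sox9*, *S100b* or *Wif1*. Its leading genes were *Calcrl* (9 transcripts) and *Ctla2a* and *Tmem100* (6 each), followed by *Cav1*, *Clec14a* and *Gpihbp1* (4 each), all known from endothelial cells of the lung. The label therefore rested on the CRPR2 section alone, and every profile below is of its 256 members.

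Members were set against the 137034 reference cells of their own section to ask which other genes they carried. Levels in cell groups are CPM with the 6 rule genes left out of the total, and genes at 100 CPM or more on either side were counted. As log2 ratios of CPM with 10 added, 48 of 359 genes (13.4%) were at least 2-fold higher in the members, 22 of them at least 8-fold, and 226 (63%) were at least 2-fold lower, 50 of those with no transcript in any member. The median ratio was -1.87, so most genes took a smaller part of the total in these cells. Per cell rather than as CPM, the counts were 44 higher and 248 lower, and with ratios centred on that median they were 125 and 117. The counts of lower genes that follow are relative to the whole total, and a gene with a ratio between -1.87 and -1 lies above the median of all genes. Transcripts of a neighbouring cell that fall within a segmented outline cannot be told apart from the cell's own. Probe sets differ between genes, so levels are compared between groups of cells and not between genes.

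The cartilage matrix genes of the panel led the list. *Col2a1* had 715 transcripts in the members, or 31857 CPM (29565 to 34280) against 7.42 in reference cells. It was present in 65.6% of members, in 0.0679% of reference cells and in 0.0995% of NE cells, which are not known to make it. *Ucma* reached 26154 CPM (24081 to 28358) against 12.1, and *Comp* 46026 CPM (43261 to 48920) against 77.0. *Comp* was present in 72.7% of members and 1.40% of NE cells. In cells of the fibroblast gate (*Itga8* and *Gli1* together at 2 or more) the 3 genes stood at 8.07, 6.83 and 75.1 CPM, close to their reference levels. With each cell thinned to 50 transcripts, which left out 36 members, 85.0% of the remaining 220 (79.6 to 89.4) had a transcript of the 3 genes and 0.424% of reference cells had one; unthinned, the shares were 87.9% and 0.857%.

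The list of chondrocyte factors had 4 genes on the panel (*Sox9*, *Runx2*, *S100b* and *Wif1*), and all 4 were at least 2-fold higher, where 13.4% of all genes counted were. *Sox9*, the regulator of *Col2a1* and *Acan*, reached 24238 CPM against 457 and was present in 192 of 256 members and 4.19% of NE cells. *Runx2*, a factor of bone and of maturing chondrocytes, stood at 1604 CPM against 547, from 36 transcripts in 28 members, with a log2 ratio of 1.53 that was under 2-fold (0.98) in members with 5 or more *Acan* transcripts. *Runx1*, a related factor outside the lists, did not pass 2-fold (10070 against 6264 CPM). *Pou3f3*, a POU domain factor, stood at 3609 against 59.9 CPM, and *Twist1*, a factor of mesenchyme, at 2228 against 78.8. *Snai2* and *Snai1*, repressors known from epithelial-mesenchymal transition, stood at 3654 against 636 CPM and 4634 against 1244, though *Snai1* was about as high in the fibroblast gate (3625 CPM).

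Genes of secreted and signaling proteins followed. *Wif1* had 1483 transcripts in the members and a level of 66076 CPM (62755 to 69526) against 260, and it was present in 92.2% of members, 2.06% of reference cells and 0.619% of NE cells. *Bmp2*, a ligand that drives cartilage and bone formation, stood at 7797 CPM against 442. *Otor* stood at 4322 CPM against 15.6 but in only 15.2% of members. *Ecrg4*, the gene of the secreted peptide augurin, stood at 12030 CPM against 106. *S100b* stood at 19827 CPM against 173. *Gfap*, a glial gene, had 1 transcript in all members.

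Other genes named for a large ratio or level in members encode matrix proteins and proteins of other functions. The small leucine-rich proteoglycan genes *Lum*, *Aspn* and *Bgn* stood at 23793 against 1006 CPM, 16797 against 1303 CPM and 72982 against 22657 CPM. *Bgn* was present in 95.7% of members and in 62.0% of reference cells. *Ccdc80*, another matrix protein gene, stood at 41748 CPM against 2121. *F13a1*, the gene of the A subunit of coagulation factor XIII, stood at 27936 CPM against 1207. Macrophages also express *F13a1*, and 13 of the other 14 genes of the immune list were at least 2-fold lower in members, where 63% of all genes counted were, among them *Ptprc* (847 against 5504 CPM), *Cd68* (446 against 4245) and *Mrc1* (356 against 2467). The exception, *Ly6g*, stood at 1069 against 1114 CPM. *Scin*, the gene of the actin-severing protein scinderin, stood at 7975 CPM against 317, and at 3511 CPM in NE cells. *Fxyd3* stood at 16040 CPM against 620.

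All of the 15 genes with the largest ratio over reference cells were also at least 2-fold higher than in the fibroblast gate (11205 cells) and in a mural gate of cells with 3 or more transcripts of *Rgs5* (2421 cells). Over all genes, 55 of 327 (16.8%) were at least 2-fold higher than in the fibroblast gate and 64 of 332 (19.3%) than in the mural gate. The nearest approach among the 15 was *Scin* in NE cells, a group outside both gates.

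**Figure D2:**
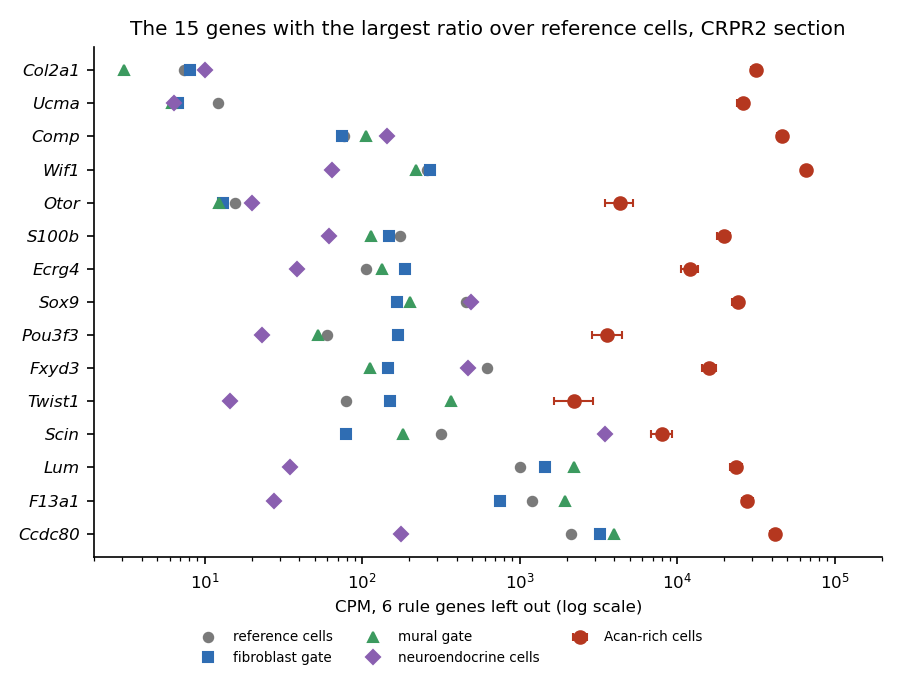
Levels of the 15 genes with the largest ratio over reference cells in the CRPR2 section, in CPM with the 6 rule genes left out, on a log scale. Red points are the 256 Acan-rich cells with 95% exact Poisson intervals, and the other symbols are reference cells, the fibroblast and mural gates and NE cells. The red points lay to the right of every other symbol for all 15 genes.

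Markers of other cell types were counted beside the 63% of all genes counted that were at least 2-fold lower in members. The 7 endothelial genes on the panel were all at least 2-fold lower and summed to 1381 CPM in members against 26844 in reference cells, the largest remainder being *Plvap* at 446 CPM. The 4 alveolar genes were all lower, at 847 CPM in sum against 56156, with *Lamp3*, a marker of alveolar type II cells, at 0. Of 14 airway genes counted, 10 were lower and none higher. The sum over all 15 on the panel, 9134 CPM against 33284, was led by *Scgb3a1* (3787 against 5231 CPM), a secretory cell gene. Of 7 smooth muscle and mural genes, 5 were lower, with *Acta2* at 5347 against 12648 CPM (higher by 0.63 on the log2 scale with ratios centred on the median). The shares of the airway and mural lists that were lower lay near that of all genes. The 3 mesothelial genes were lower, with *Msln* and *Upk3b* at 0. The only gene of the adipocyte list on the panel, *Pck1*, had 2 transcripts. Of the NE genes outside the rule, *Gria2* and *Ly6h* were at 0, and *Insm1* stood at 178 against 839 CPM and at 9794 in NE cells. No gene of the list for mineralizing bone was on the panel.

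Among the 10 genes with the smallest ratio, 9 had no transcript in 256 members. Taking 3 transcripts over all members as the floor (134 CPM), *Lamp3* was at least 57.4-fold lower than in reference cells, *Cyp4b1*, a cytochrome P450 gene of lung epithelium, at least 47.1-fold, and *Hc*, the gene of complement C5, at least 39.2-fold. *Atp6v0d2*, *Upk3a*, *Bst1*, *Lrp2*, *Tbx1* and *Cd300lf* were also at 0, with bounds from at least 8.52-fold to at least 22.5-fold. *Calcrl*, a receptor gene of lung endothelium, had 2 transcripts, a log2 ratio of -7.41 (-10.46 to -5.56) without any added CPM.

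All 6 cell cycle genes on the panel were at least 2-fold lower, where 63% of all genes counted were (*Pclaf* was level, at 0.067, with centred ratios), with *Mki67* at 178 CPM against 3360 and *Top2a* at 267 against 2349. With cells thinned to 50 transcripts, 1 of 220 members carried either gene (0.455%, 0.0115 to 2.51), against 16.1% of reference cells, 7.51% of the fibroblast gate and 49.98% of NE cells. Unthinned, the members' share was 3.52% (9 of 256), and the median depths of these groups were 87.5, 99, 136 and 102 transcripts.

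Signaling lists were counted for the genes that the panel held, beside the 13.4% of all genes counted that were at least 2-fold higher in members and the 63% that were lower. Both genes named for the Hippo pathway, the matricellular genes *Ccn2* and *Ccn1*, were higher, *Ccn2* at 57164 against 3891 CPM and in 89.5% of members, and *Ccn1* at 6817 against 2910. The log2 ratio of *Ccn1* was under 2-fold per cell (0.91) and with 1 or more (0.64) or 5 or more (0.96) *Acan* transcripts. *Ccn2* is also a long-known gene of chondrocytes, and it stood at 9133 CPM in the fibroblast gate. Of the Wnt targets, *Axin2* stood at 4634 against 2012 CPM, *Tbx3* at 3475 against 2841, past 2-fold against all other cells (log2 ratio 1.17) though not against reference cells, and *Lgr5* was too low to count. The log2 ratio of *Axin2* was under 2-fold per cell (0.88), with 1 or more (0.83) or 5 or more (0.58) *Acan* transcripts, and in members with 2 or more transcripts of *Col2a1* and *Ucma* (0.98). Of the hedgehog genes, *Ptch1*, the receptor and target, stood at 1114 against 2628 CPM and *Gli1*, the effector, at 267 against 484. The log2 ratio of *Gli1* was -0.83. It was past 2-fold lower in several alternatives, among them members with 3 or more *Acan* transcripts (-1.45, from 3 transcripts of *Gli1*), thinned cells (-1.47) and ratios per cell (-1.14). The ratio of *Gli1* was positive with 1 or more *Acan* transcripts (0.34) and against all other cells (0.20), so its direction depended on the limit and the reference. No gene of the BMP list (*Id1* and *Smad6*) passed 2-fold. Of the TGF-beta list, *Smad7* stood at 2941 against 3517 CPM and *Thbs1* at 5302 against 4929. Of the Notch targets, *Hes1* (178 against 2859 CPM) and *Hey1* (490 against 1937) were lower, and *Hey2* had a log2 ratio of -0.012. The ratio of *Hey2* was past 2-fold lower in members with 5 or more *Acan* transcripts (-1.795), in thinned cells (-1.07) and in members with 2 or more transcripts of *Col2a1* and *Ucma* (-2.07). It was positive with 1 or more *Acan* transcripts (0.66) and against all other cells (0.68). *Hey2* stood at only 312 CPM in members, so these ratios rest on few transcripts. The share of the Notch list that was lower lay near that of all genes. With ratios centred on the median, *Hey1* was near level, at -0.088 on the log2 scale. *Vegfa*, the angiogenic factor, was lower (847 against 11508 CPM), as was *Pdgfb* (89.1 against 2221), and *Hif1a* stood at 3297 against 5092, past 2-fold lower in thinned cells (log2 ratio -1.02) and against all other cells (-1.16).

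Transcripts of 2 of the genes that Cre deletes were measured in these cells. *Trp53* stood at 2896 CPM (2235 to 3691) against 2034 in reference cells and 933 in NE cells, and was present in 21.9% of members. *Rb1* stood at 2005 CPM (1462 to 2683) against 4065 in reference cells and 11916 in NE cells, about 2-fold lower by the ratio used here and higher by 0.86 on the log2 scale with ratios centred on the median. Where the probes lie relative to the deleted exons is not given in the sources used here, so these levels do not tell whether an allele was cut. *Cdkn1a*, the cell cycle inhibitor p21, stood at 9178 against 4211 CPM, but under 2-fold per cell (log2 ratio 0.81), with 1 or more *Acan* transcripts (0.55) and against all other cells (0.65). *Mdm2* did not pass 2-fold. The log2 ratio of *Bax* was -0.64, and it was past 2-fold lower in members with 5 or more *Acan* transcripts (-1.19), in thinned cells (-1.003) and in members with 2 or more transcripts of *Col2a1* and *Ucma* (-1.02). *Rps27l* was lower (356 against 1098 CPM, but higher by 0.28 on the log2 scale with centred ratios). The ribosomal genes *Rps18*, *Rps28* and *Rpl35* stayed within 2-fold, at 8109 against 11385, 7619 against 9625 and 312 against 301 CPM.

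The members were not uniform, and levels of some other genes differed with the number of *Acan* transcripts in the cell. *Col2a1* stood at 11504 CPM in the 67 members with 2 transcripts of *Acan*, at 17500 in the 72 with 3 or 4, at 37385 in the 70 with 5 to 9 and at 57675 in the 47 with 10 or more. *Comp* ran from 25062 over 31786 and 52245 to 71467 CPM, and *Sox9* from 12325 over 23036 and 24089 to 36002. *F13a1* had the widest span of these, from 9449 to 60899 CPM. *Otor* (3287, 5000, 4693 and 4120 CPM) and *Pou3f3* (3081, 3929, 4067 and 3224) did not differ beyond counting error over the 4 classes. Depth moved in the same direction, with medians of 69, 76.5, 90.5 and 121 transcripts per cell, and its part in the levels was not tested. Just outside the rule, the 279 cells with 1 transcript of *Acan* had *Col2a1* at 1281 CPM, *Comp* at 5606 and *Sox9* at 2627, above reference cells and below the members with 2, with a median depth of 96.

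Genes of the fibroblast list differed among themselves within the members. Of the 13 fibroblast genes counted, 5 were at least 2-fold higher in members than in reference cells (*Lum*, *Mmp2*, *Twist1*, *Snai1* and *Snai2*) and none was lower, where 13.4% of all genes counted were higher and 63% lower. *Lum* peaked at 38036 CPM in members with 3 or 4 *Acan* transcripts and stood at 7523 in those with 10 or more. *Col1a1*, the type I collagen gene, ran from 41496 CPM at 2 transcripts to 6269 at 10 or more, and *Dpt*, the gene of dermatopontin, from 5546 to 537. *Snai2* did not differ beyond counting error (4108, 3214, 4067 and 3224 CPM), and *Snai1* was highest at 3 or 4 transcripts (7143 CPM). *Pi16*, a marker of adventitial fibroblasts, stood at 3903 CPM (19 transcripts) at 2 and at 358 (2 transcripts) at 10 or more.

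**Figure D3:**
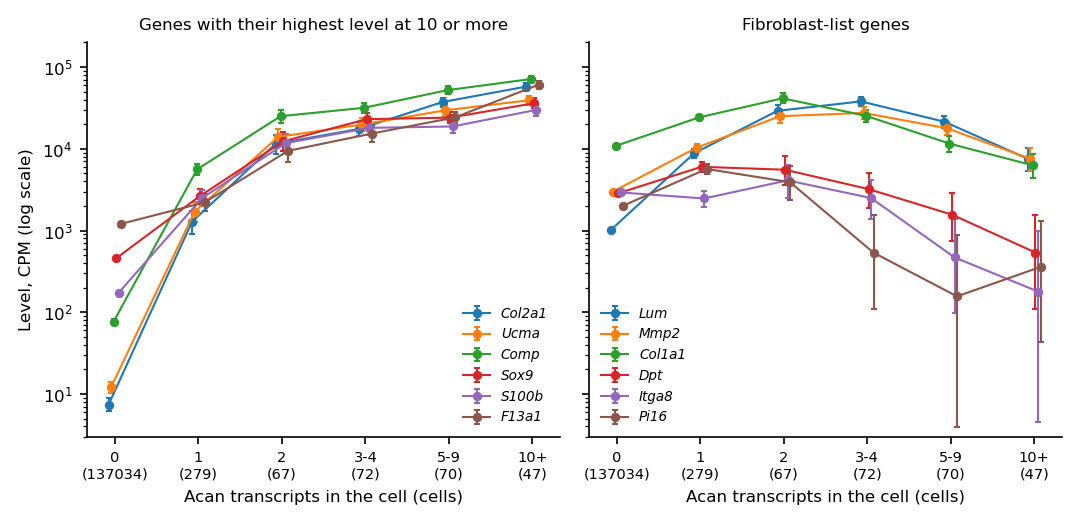
Levels of 6 cartilage-associated genes (left) and 6 genes of the fibroblast list (right) in CRPR2 cells with at most 1 NE transcript, by the number of *Acan* transcripts in the cell (number of cells in brackets), in CPM on a log scale. Bars are 95% exact Poisson intervals. The genes on the left, chosen for this after their values had been seen, had their highest level at 10 or more, while *Lum* and *Col1a1* were lower at 5 or more than at 2 to 4.

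A transcript of *Col2a1* divided the members in a similar way. The 168 with one had a median of 6 *Acan* transcripts and 91.5 in all, and the 88 without had 3 and 74. The former had more *Ucma* (34193 against 8745 CPM), *F13a1* (36212 against 10014), *Comp* (56467 against 23413) and *S100b* (24228 against 10296). The latter had more *Col1a1* (38505 against 11723 CPM), *Lum* (36530 against 17911), *Mfap5* (3244 against 130), *Pi16* (2821 against 326) and *Itga8* (3949 against 651). *Bgn* and *Timp3*, an inhibitor of matrix metalloproteinases, did not differ beyond counting error, and *Pou3f3* did not either (3712 against 3385 CPM).

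Single members often carried several cartilage genes at once. Of 256 members, 189 (73.8%) had a transcript of 3 or more of *Col2a1*, *Ucma*, *Comp*, *Sox9* and *S100b*, 91 had all 5 and 10 had none. Of reference cells, 20 (0.0146%) had 3 or more, as did 35 of the 279 cells with a single *Acan* transcript (12.5%). In the RPR2 section, 5 of all 152915 cells kept had 3 or more, here with no limit on NE genes.

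The members stood together in the deposited list of cells, which was read in the order given. Of the 10 cells listed nearest to a member, 38.9% on average were members, against 0.0747% of all cells. NE cells, which form the tumors, were listed next to their own kind in 81.4% of cases where they made up 59.2% of all listed cells, and in RPR2 in 81.3% where they made up 10.6%. How closely the list follows place in the tissue was not tested, since cell positions were not used here. Of the 256 members, 253 fell within the first 10555 cells, or 3.08% of the section. The 3 listed apart had none of the transcripts of *Col2a1*, *Ucma*, *Comp*, *Sox9*, *S100b*, *Wif1* and *Otor*, like the member of the RPR2 section. Without those 3, left out after the data had been seen, 48 genes were at least 2-fold higher than in reference cells and 231 lower.

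**Figure D4:**
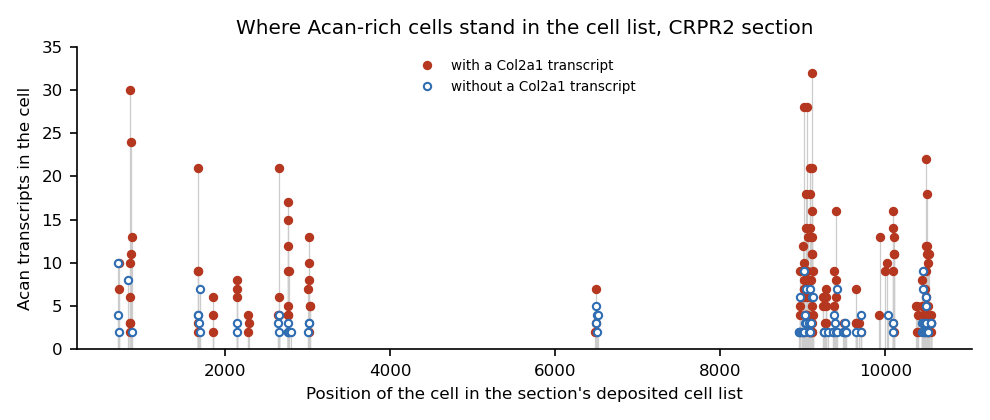
Each point is 1 of the 253 Acan-rich cells within the first 10555 cells of the CRPR2 list, placed by its position in the list (x axis) and its number of *Acan* transcripts (y axis). Filled points carried a *Col2a1* transcript and open points did not. The cells fell into groups, with the most between positions 8952 and 10555.

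With a gap of more than 100 cells taken as a break, the members formed 17 stretches, a division made after the data had been seen. In all, 10 stretches had at least 8 members and together held 237, the longest 71. *Sox9* varied 1.41-fold among the 10, from 19576 to 27649 CPM, with the lowest value from 12 transcripts (10115 to 34195). *Wif1* varied 1.71-fold. It differed beyond counting error between the stretches of 71 members (72663 to 85691 CPM) and 33 members (49566 to 67598). *Comp* varied from 5376 to 89084 CPM, *Ucma* from 10493 to 51753 and *Col2a1* from 15040 to 52048. The stretch at positions 6486 to 6517, with 9 members, had *Sox9* at 25090 and *Wif1* at 73477 CPM but *Comp* at 5376 (3 transcripts), and the stretch of 33 members at positions 9246 to 9517 had *Comp* at 11892. *Otor* was the most uneven. Of its 97 transcripts, 24 lay in the 5 members of the first stretch and 30 in the 11 members of the second, at most 13 and 12 in 1 cell, while 4 members held 41.2% of them all. In the stretch of 49 members, *Otor* had 2 transcripts.

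**Figure D5:**
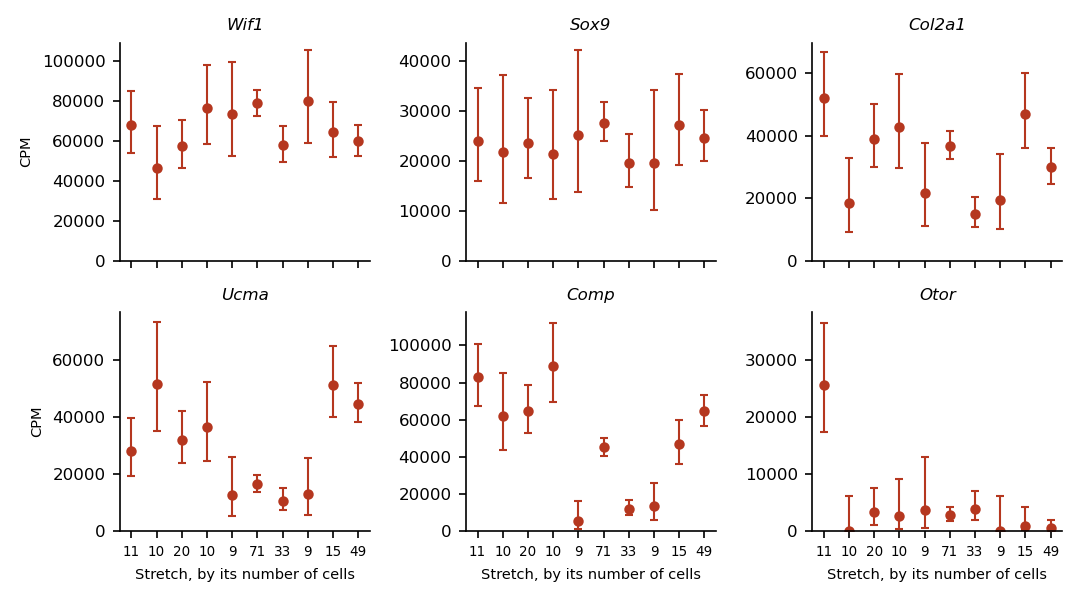
Levels of 6 genes in the 10 stretches of the CRPR2 cell list with at least 8 Acan-rich cells, in list order and labelled by the number of those cells, in CPM from 0. Bars are 95% exact Poisson intervals. *Wif1* and *Sox9* varied less than *Col2a1*, *Comp* and *Ucma*, and *Otor* was high in the stretch of 11 cells.

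The cells listed within 5 places of a member were profiled by their place in the list only. There were 630 such cells, chosen after the data had been seen, with a median of 88 transcripts. NE cells were 6.03% of them and 59.6% of the cells kept. Of 373 genes, 86 (23.1%) were at least 2-fold higher than in reference cells. Besides the genes of the members themselves, which were present at lower levels (*Col2a1* 1473, *Comp* 4403 and *Wif1* 10228 CPM), these included genes of other cell types. *Krt5*, a keratin of airway basal cells, stood at 1676 CPM against 182 in reference cells and 223 in members, while *Krt19* stood at 4792 against 7212 CPM and *Cdh1* at 3556 against 6752. Both are on the airway list too, and the sum of its 15 genes was 45585 against 33284 CPM. *Pck1* (1930 against 194 CPM in reference cells and 89.1 in members), *Car3* (11667 against 2162 and 267) and *Retn* (2557 against 508 and 178) are known from adipocytes. *Upk3b*, a mesothelial gene, stood at 1558 CPM against 200 and 0, and *Cpa3*, of mast cells, at 914 against 51.0 and 44.6. Fibroblast genes summed to 90915 CPM against 34645, with *Lum* at 11667 and *Dpt* at 11532. The 4 alveolar genes summed to 6198 CPM against 56156. Among these cells, 99 carried 1 *Acan* transcript each. The part of transcripts assigned across cell outlines in these levels was not tested.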

How the data were processed

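Xenium In Situ counts of 1 RPR2 and 1 CRPR2 section were analysed. The authors deposited, without normalization, transcript counts per gene and segmented cell, from 541 features of which 479 are genes. The authors segmented cells by nuclear expansion and list Seurat 4.4.0 among their tools. The genome build behind the probes is not given in the sources used here. The 16313950 (RPR2) and 37348565 (CRPR2) gene transcripts came from 154818 and 342845 cells, of which 1903 and 2236 with fewer than 20 transcripts were left out. No doublet caller was run. Cell positions, images and other experiments were not used here. Results of some genes are not reported here.

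Counts were summed over cells and expressed as CPM. Exact Poisson and binomial intervals (95%) cover counting error only, and with 1 section a genotype no test was made. Named genes were the 15 largest and 10 smallest ratios, the 10 largest levels, all cartilage and pathway list genes, the most abundant gene of each other list, *Rb1* and *Trp53*. Others were named after their values had been seen. Members and lists were chosen with earlier results of these data known. The comparison was tested on simulated data. Alternatives changed the depth limit, the rule, the reference, the scaling, the added CPM and the minimum CPM. Scripts ran in Python 3.11.15 with scipy 1.17.1 and numpy 2.4.6, and figures were drawn in matplotlib 3.10.9.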

Additional observations from a re-analysis of the deposited data

How the results depend on the processing

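The share of Acan-rich cells was higher in CRPR2 than in RPR2 under every limit tried. Per 100000 cells of CRPR2 and RPR2, their number was 157 and 118 with 1 or more *Acan* transcripts, 55.5 and 0 with 3 or more, 34.4 and 0 with 5 or more, and 52.8 and 0 with cells thinned to 50 transcripts. It was 186 of CRPR2 cells with at most 1 NE transcript, and 59.3 by *Col2a1* and *Ucma*, chosen after seeing the data. Taking 3 cells as the floor, a count of 0 in RPR2 corresponds to less than 1.96, or 2.19 with thinned cells. These floors are not exact binomial bounds. The *Acan* level of CRPR2 was 124 CPM in cells with at most 1 NE transcript and 14.3 CPM without Acan-rich cells. Among the 2 and the 50 nearest listed cells, 46.1% and 24.0% were Acan-rich. The count of lower genes was 93 with 1 or more *Acan* transcripts. Scalings were added after seeing the data: centred on the median, 125 genes were higher and 117 lower, a shift of 1.87 by construction, and per cell the median moved by -0.30. Centring turned these log2 ratios: *Acta2* 0.63, *Bax* 1.23, *Gli1* 1.04, *Hey2* 1.86, *Hif1a* 1.25, *Id1* 1.75, *Mdm2* 1.36, *Mitf* 1.32, *Pck1* 0.83, *Pclaf* 0.067, *Ptch1* 0.64, *Rb1* 0.86, *Rps18* 1.38, *Rps27l* 0.28, *Scgb3a1* 1.41, *Smad6* 1.501 and *Smad7* 1.62. *Pck1* (2 transcripts) also turned with 1 or more *Acan* transcripts (0.51), with all other cells as reference (0.080) and with thinned cells (0.014), and the cause was not tested. Changes of sign where both ratios were under 2-fold were not counted as turned. Among them were *Gli1* and *Hey2* with 1 or more *Acan* transcripts (0.34 and 0.66) and against all other cells (0.20 and 0.68). Another was *Id1* in thinned cells (0.23). No comparison of genes between the sections' Acan-rich cells was run, since RPR2 held 1. No paired analysis was possible because each genotype had 1 section. Genes with few transcripts among 22444 in members are limited by depth.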
